A study of Mus musculus with 36 samples.

Results

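In BV-2, a mouse microglia line that has been immortalised, 8 genes were examined that encode proteins making or removing superoxide and hydrogen peroxide: Cybb, Cyba, Ncf1, Ncf4 and Rac2 of the phagocyte oxidase, the superoxide dismutases Sod1 and Sod2, and the catalase gene Cat. They were taken by exact match of the gene symbol, which found 8 of the 19879 genes listed in the deposited tables. RNA sequencing covered 36 libraries in 12 groups of 3: at 4 h and at 24 h, cells with DMSO or EtOH (ethanol) vehicle, with lipopolysaccharide (LPS, a bacterial cell wall product) at 600 ng/ml, or with LPS plus 30 µM dimethyl fumarate (DMF), 30 µM monomethyl fumarate (MMF) or 6 µM cannabidiol (CBD). The cells were wild-type, every treated culture held vehicle at 0.2%, and serum was lowered just before treatment in the LPS experiments. DMF and MMF were dissolved in DMSO and CBD in ethanol, and the labels do not say which vehicle the cultures with LPS alone held, so drug and solvent cannot be told apart in a comparison with LPS alone. Each experiment was done 3 times on 1 cell line, so errors describe repeats of a culture and not animals.

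The phagocyte oxidase moves electrons from NADPH across a membrane to oxygen and so makes superoxide. Cybb (gp91phox, also called NOX2) is its catalytic subunit and Cyba (p22phox) the membrane partner that steadies it, while Ncf1 (p47phox, the organiser), Ncf4 (p40phox) and the small GTPase Rac2 join from the cytosol when the cell is stimulated. Superoxide is turned into hydrogen peroxide by Sod1 in the cytosol and by Sod2 in mitochondria, and catalase, mostly in peroxisomes, breaks hydrogen peroxide down to water and oxygen. In microglia the oxidase is part of the respiratory burst, and Sod2 is a well-known gene induced by inflammatory signals.

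In the mouse build GRCm39, which the files use, Cybb (ENSMUSG00000015340) lies at chrX:9301491-9354010 and Cyba (ENSMUSG00000006519) at chr8:123151515-123159669, both on the minus strand. Ncf1 (ENSMUSG00000015950) lies on the minus strand at chr5:134248907-134258479. Ncf4 (ENSMUSG00000071715, plus strand, chr15:78129001-78146780) and Rac2 (ENSMUSG00000033220, minus strand, chr15:78443367-78456983) share chromosome 15. Sod1 (ENSMUSG00000022982) is at chr16:90017642-90023217 and Sod2 (ENSMUSG00000006818) at chr17:13225733-13258950, both on the plus strand, and Cat (ENSMUSG00000027187) is on the minus strand at chr2:103284194-103315505. All 8 are protein coding. The strand setting of the read counting is not given in the sources used here, and exons of genes on the opposite strand cover 46.5% of the exon length of Sod1 (Scaf4), 16.5% of that of Ncf1 (Gtf2ird2), 8.74% of that of Sod2, 6.39% of that of Cybb (Xk) and 2.83% of that of Rac2. Without strand, reads of these overlaps cannot be told apart.

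The 250 bases upstream of the start of the canonical transcript are shown for Cybb, Ncf1 and Ncf4, the 3 oxidase genes that were lower with DMF than with LPS alone at 4 h, in GENCODE M39 gene models on GRCm39, 5′ to 3′ along each gene's strand. The windows are chrX:9335571-9335820 for Cybb (minus strand), chr5:134258480-134258729 for Ncf1 (minus strand) and chr15:78128732-78128981 for Ncf4 (plus strand), and none overlaps an annotated exon; that of Cybb lies inside the gene span the files give. Capitals mark matches, on either strand, to the 5 motifs searched: GAGGAA (the core bound by ETS factors such as PU.1), GGANTTTCC (a form of the NF-kB site), TGACNNNGC (the core of the antioxidant response element), TTCNNNGAA (a form bound by STAT factors) and TGANTCA (a form of the AP-1 site).
Cybb: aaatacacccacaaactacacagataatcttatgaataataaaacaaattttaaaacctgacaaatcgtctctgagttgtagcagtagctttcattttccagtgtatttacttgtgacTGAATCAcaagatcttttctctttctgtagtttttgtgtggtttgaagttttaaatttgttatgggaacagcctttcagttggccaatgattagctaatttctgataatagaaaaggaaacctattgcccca
Ncf1: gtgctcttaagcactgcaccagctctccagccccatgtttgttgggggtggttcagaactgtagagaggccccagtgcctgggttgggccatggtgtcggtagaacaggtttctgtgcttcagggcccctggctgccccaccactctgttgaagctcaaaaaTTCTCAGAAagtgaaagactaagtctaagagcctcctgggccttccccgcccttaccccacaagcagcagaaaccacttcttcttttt
Ncf4: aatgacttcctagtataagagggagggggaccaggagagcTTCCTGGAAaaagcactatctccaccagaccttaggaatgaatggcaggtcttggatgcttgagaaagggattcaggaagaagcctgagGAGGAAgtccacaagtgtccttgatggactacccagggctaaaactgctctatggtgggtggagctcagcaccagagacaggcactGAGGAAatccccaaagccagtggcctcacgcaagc
The Cybb window held 1 match to TGANTCA, starting at -132 from the start site. The Ncf1 window held 1 match to TTCNNNGAA at -88, and the Ncf4 window held GAGGAA at -121 and -35 and TTCNNNGAA at -210. Of 21757 windows of the same length upstream of protein-coding genes, 22.9% held GAGGAA, 1.18% GGANTTTCC, 9.70% TGACNNNGC, 7.70% TTCNNNGAA and 6.18% TGANTCA, so these matches describe the letters and are no evidence of binding. In the windows of the other 5 genes, Rac2 held 5 matches to GAGGAA, Sod2 held 1 to GAGGAA and 1 to TTCNNNGAA, Cat held 1 to GAGGAA, Sod1 held 1 to TGACNNNGC and Cyba held no match, and no 2 matches overlapped. For Rac2 and Sod1 that start lies 446 and 234 bases upstream of the gene start the files give. For Sod2 it lies inside the gene span the files give, and all 250 bases of its window, with both matches, overlap annotated exons. In the Cat window 59 bases do.

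The libraries held between 14110424 and 26676607 reads on listed genes (median 16230584), and the 8 genes had between 1073 (Ncf4) and 11020 (Rac2) reads per library on the joint scale defined next. Of 13 microglia and macrophage markers, 13 were detected, with a summed level between 31076 and 55448 reads per library; Aif1, P2ry12 and Tmem119 had medians of 70.5, 43.5 and 75.9 reads and stood lowest among them. The 5 neutrophil markers, neutrophils being the other main cell with this oxidase, summed to between 10.8 and 62.4 reads, and those of lymphocytes to at most 2.41. Astrocyte markers summed to between 2.96 and 23.2 reads, mostly Gfap (up to 22.2), and oligodendrocyte markers to between 24.3 and 80.8. Of the neuron markers Rbfox3 had at most 1.2 reads, while Snap25, Syt1 and the astrocyte gene Aqp4 were not listed. Levels below are reads recovered from the authors' normalized counts and scaled jointly over the 36 libraries (reads, jointly scaled); fold changes are log2(normalized count + 1) differences within the 6 libraries of a comparison, with the standard error (SE) of limma. Calls are genes whose p, adjusted by Benjamini-Hochberg over all genes tested, was below 0.05, and all 8 genes passed the filter on low values in each of the 30 comparisons.

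Per kilobase of exon, and averaged over the 36 libraries, Sod1 stood highest of the 8 genes (6255 ± 1132 reads per kb, SD) and Cyba next (4585 ± 979), followed by Rac2 (2044 ± 775), Ncf4 (1374 ± 556), Cat (1056 ± 510), Ncf1 (997 ± 260), Cybb (875 ± 485) and Sod2 (574 ± 197). These spreads include the differences between groups. The ratio of the highest to the lowest group mean was largest for Cybb (4.46) and smallest for Ncf1 (1.99), with 2.14 for Cyba, 3.37 for Ncf4, 2.44 for Rac2, 2.03 for Sod1, 3.01 for Sod2 and 3.27 for Cat.

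**Figure D1:**
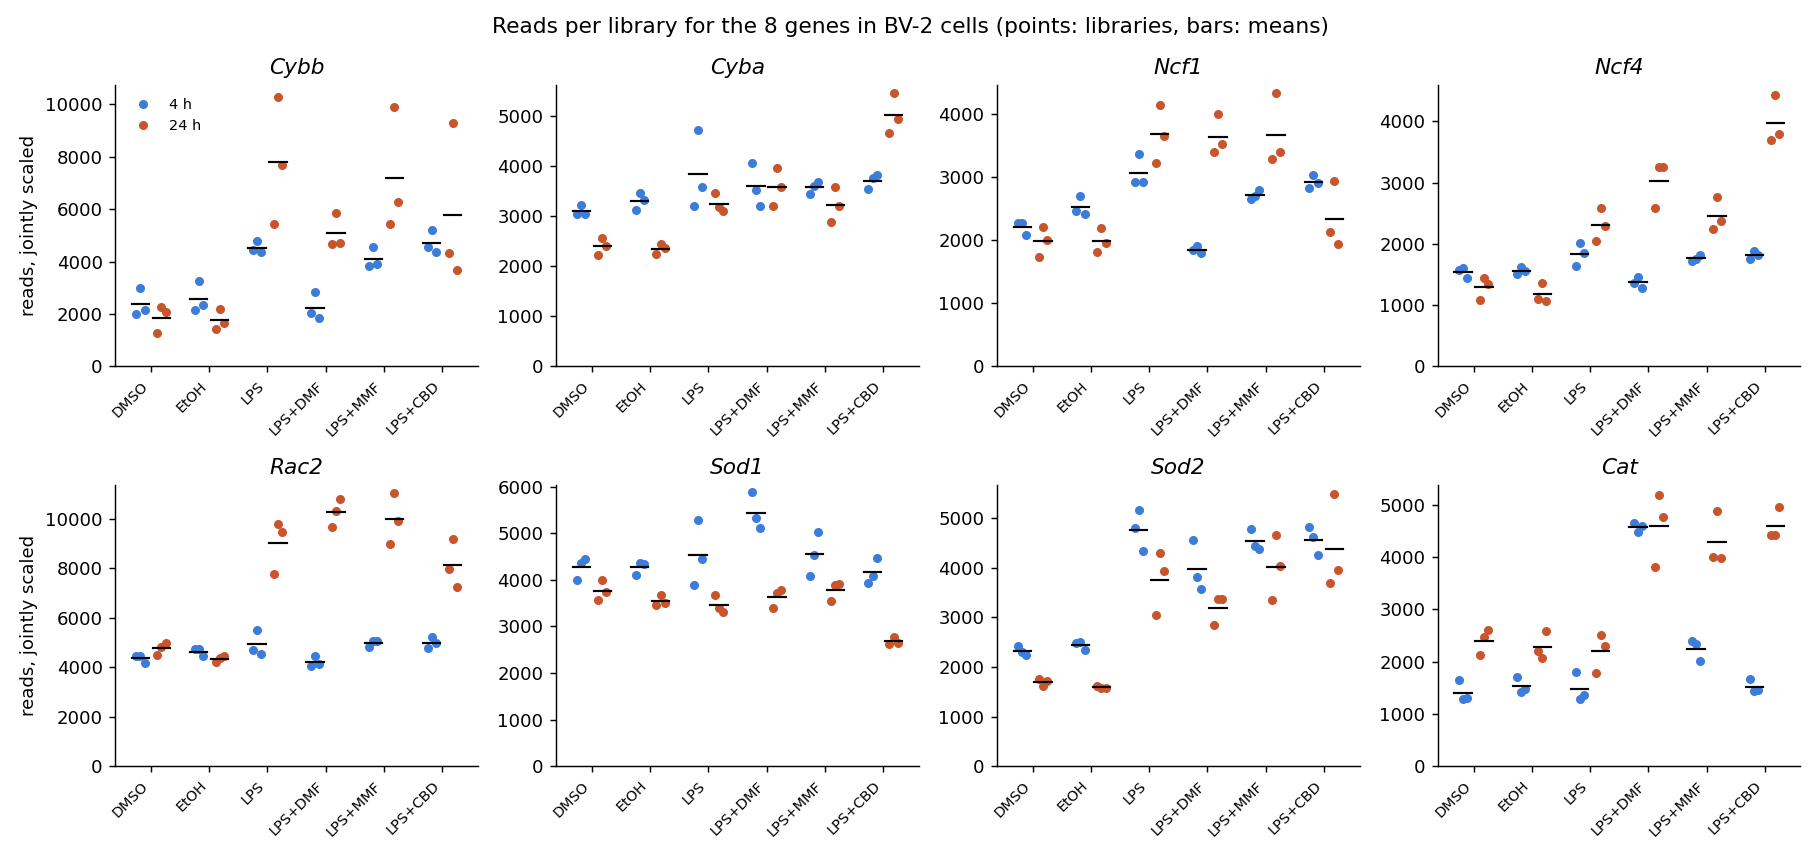
Reads per library, jointly scaled (y axis, from 0), for each of the 8 genes in the 6 treatments (x axis) at 4 h and 24 h; points are the 3 libraries of a group and bars their mean. Cat stands between 3811 and 5191 in the libraries with LPS and DMF at either time, above every library with LPS alone (1294 to 2508).

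When the 12 groups were put in order of their mean, few neighbours were apart. In Cybb 1 of 11 neighbouring pairs did not overlap: the 7 groups with LPS other than LPS with DMF at 4 h all stood above the 4 vehicle groups and LPS with DMF at 4 h. In Cyba the step lay between DMSO at 4 h and the 24 h vehicles, which stood lowest (2230 to 2560 reads). In Ncf1, LPS, LPS with MMF and LPS with DMF at 24 h overlapped at the top and LPS with DMF at 4 h was lowest. Ncf4 had 3 such steps, with LPS with CBD at 24 h alone at the top (3700 to 4428 reads). In Rac2 the 4 groups with LPS at 24 h (7226 to 11020 reads) were apart from the other 8 groups (4032 to 5507). Sod1 was highest in LPS with DMF at 4 h (5113 to 5884 reads), where 1 library with LPS alone at 4 h (5296) came within its range, and lowest in LPS with CBD at 24 h (2627 to 2784), below every other library. In Sod2 the 8 groups with LPS (2844 to 5479 reads) were apart from the 4 vehicle groups (1566 to 2502). In Cat, LPS with CBD at 24 h, LPS with DMF at 24 h and 4 h and LPS with MMF at 24 h formed the top (3811 to 5191 reads) and did not overlap the next group, DMSO at 24 h.

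The comparison of LPS with each vehicle asks how the stimulus itself moved these genes. At 4 h Cybb was 1.92 and 1.79 times higher with LPS than with DMSO and EtOH and Sod2 2.04 and 1.95 times, and at 24 h Cybb was 4.22 and 4.41 times higher, with Sod2, Rac2, Ncf4, Ncf1 and Cyba also higher. Sod1 and Cat were not called at either time. In bulk RNA, more or fewer cells expressing a gene and more or less of its RNA per cell cannot be told apart.

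Cybb had 4441, 4781 and 4380 reads with LPS at 4 h, against 1997, 3000 and 2168 with DMSO and 2156, 3242 and 2327 with EtOH. The LPS libraries lay above every vehicle library. The change was 0.94 ± 0.141 (log2, SE; limma, adjusted p = 0.00361) over DMSO and 0.84 ± 0.14 (adjusted p = 0.00814) over EtOH. Sod2, the mitochondrial dismutase, had 4808, 5164 and 4333 reads with LPS, 2419, 2305 and 2233 with DMSO and 2487, 2502 and 2339 with EtOH. The groups were well apart, with changes of 1.03 ± 0.0788 (adjusted p = 0.000123) and 0.96 ± 0.0769 (adjusted p = 0.000271) over DMSO and EtOH. Ncf1 was called over DMSO only (0.47 ± 0.0793, adjusted p = 0.00653), and over EtOH its change was 0.28 with an adjusted p of 0.0623 in limma and 0.0334 in DESeq2; whether these 2 changes differ was not tested. Ncf4 stood at 0.25 and 0.23, and without LPS replicate 1 it was called in both (0.325, adjusted p = 0.047, and 0.311, adjusted p = 0.0483). Rac2 (0.17 and 0.08) and Cyba (0.28 and 0.20) were not called. In a fit of all 36 libraries Cyba was called over DMSO (adjusted p = 0.0431 in limma). At 4 h 3 of the 8 genes were called higher over DMSO, where 14.1% of all genes tested were called in either direction, and 2 of 8 over EtOH (10.2%). The median change of the 8 genes was 0.27 and 0.22, against 0 over all genes in both.

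At 24 h 6 of 8 genes were called higher with LPS over each vehicle (22.7% of all genes called over DMSO and 20.5% over EtOH), and none was lower. Cybb had 5446, 10290 and 7696 reads with LPS against 1269, 2251 and 2065 with DMSO and 1416, 2184 and 1651 with EtOH, a change of 2.08 ± 0.232 (adjusted p = 0.000113 in limma) and 2.14 ± 0.203 (adjusted p = 2.89e-05). The lowest LPS library was above the highest vehicle library, although the LPS libraries themselves spread widely. Rac2, the GTPase, had 7767, 9788 and 9457 reads against 4503, 4827 and 4971 with DMSO. It rose by 0.92 ± 0.0923 and, over EtOH, by 1.06 ± 0.0917. Ncf1 (0.90 and 0.89 over DMSO and EtOH), Ncf4 (0.86 and 0.98), Cyba (0.45 and 0.48) and Sod2 (1.15 and 1.24) rose as well, and in each the LPS and vehicle libraries did not overlap. Sod1 (-0.11, 95% interval -0.27 to 0.05 over DMSO, and -0.02, -0.18 to 0.14 over EtOH) and Cat (-0.12, -0.39 to 0.15, and -0.05, -0.33 to 0.22) were not called, and their libraries overlapped those of the vehicles. The summed microglia markers were also higher here (38643 to 52783 reads with LPS, 31146 to 38962 with DMSO), with 6 of 13 called higher over each vehicle, and their part in the result was not tested.

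**Figure D2:**
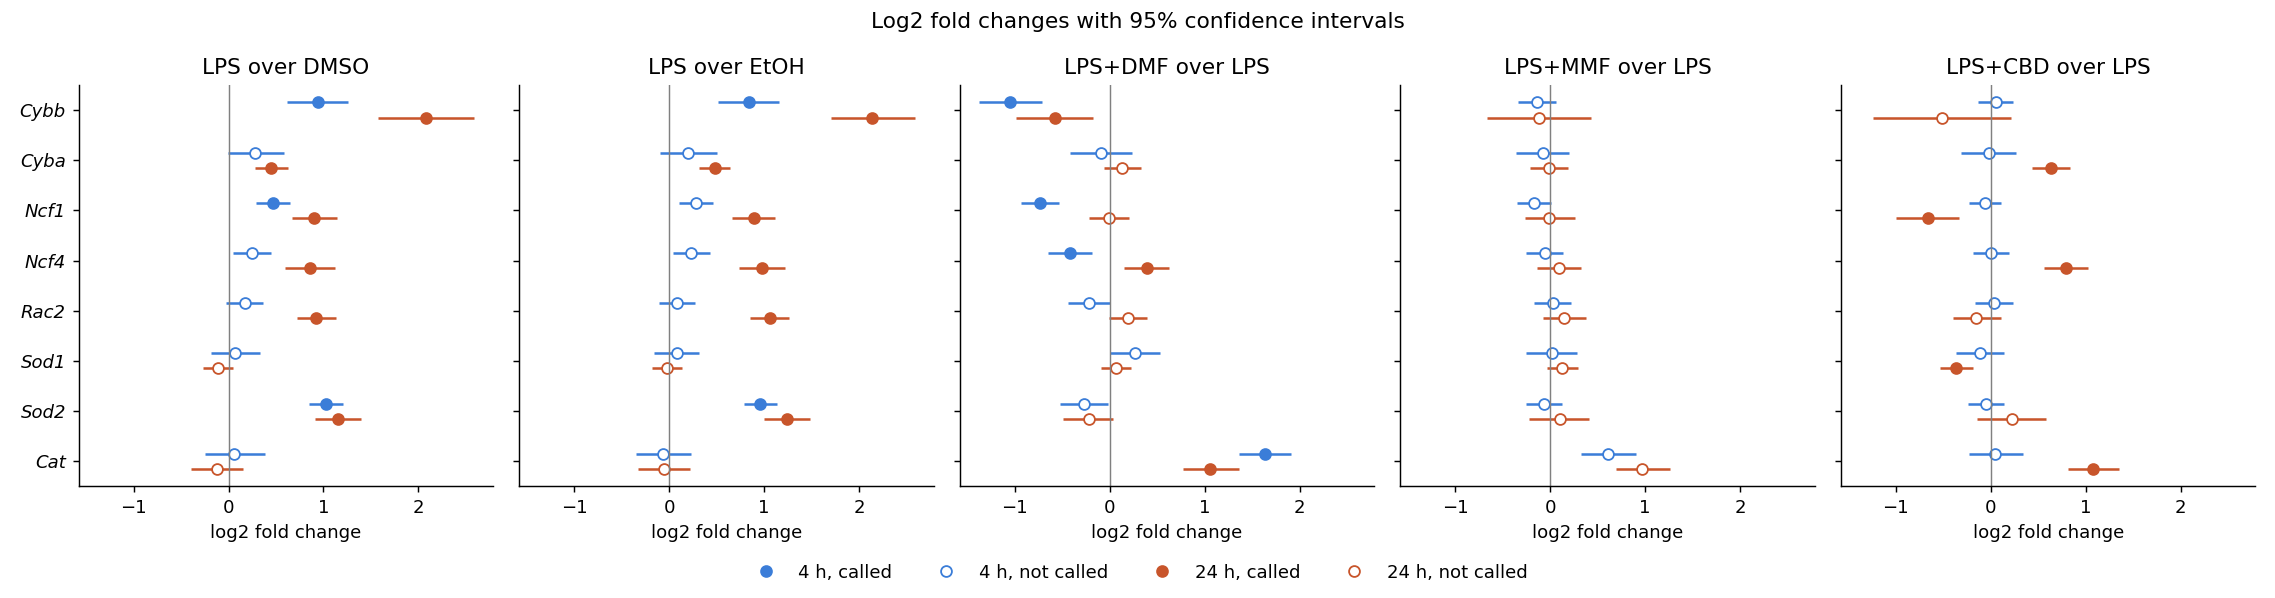
Log2 fold change (x axis) of the 8 genes for LPS over each vehicle and for each drug with LPS over LPS alone, at 4 h (blue) and 24 h (orange), with 95% confidence intervals; filled points were called by limma. Cybb moves from 0.94 to 2.08 over DMSO, and Cat lies at 1.64 and 1.06 with DMF and at 1.08 with CBD at 24 h.

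Among the genes of the same pathway outside the 8, 12 of 18 other oxidase genes were tested, and the counts and values here are over DMSO. At 4 h 2 were higher and 1 lower, led by Nox1 (2.83, a gene with few reads, 5 to 135 per library), a catalytic subunit of another oxidase; the others were Prex1, an exchange factor for Rac proteins (-0.61), and Vav1, another (0.33). At 24 h 3 were higher, led by Nox1 (2.28) and the kinase Prkcd (0.45), and 1 lower, P2rx7, the ATP-gated channel (-1.41). Of 10 other peroxide removal genes tested, 1 (Prdx1, 0.25) was higher at 4 h and 3 at 24 h (Prdx5 0.64, Prdx1 0.40 and Prdx6 0.22, all peroxiredoxins). Of 12 peroxisome assembly genes, 0 were called at 4 h and 1, Pex26, was lower at 24 h (-0.34). Of 8 transcription factors tested, 3 were higher and 2 lower at 4 h, with Spi1 (PU.1, 0.91) and Cebpb (0.88) the largest rises. At 24 h 3 were higher (Spi1 0.59, Irf8 0.52, Cebpb 0.48) and 1 lower. Over EtOH the counts differed at 4 h in the removal genes (0 called), the peroxisome genes (1 higher, Pex5, 0.34) and the transcription factors (2 higher and 1 lower), and at 24 h in the transcription factors (2 higher and 1 lower). Of all genes 14.1% were called over DMSO at 4 h and 22.7% at 24 h, and over EtOH 10.2% and 20.5%. Whether a list differs from these shares was not tested.

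DMF added to LPS is compared with LPS alone to see which of these levels the drug moved. At 4 h Cat was 3.11 times higher with DMF, while Cybb, Ncf1 and Ncf4 were lower. Their levels with DMF overlapped those of DMSO in Cybb and Ncf4, and in Ncf1 lay below them. Sod1, Sod2, Rac2 and Cyba were not called. By 24 h Cat was still higher, Ncf4 was higher than with LPS alone, and Cybb was lower.

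Cat had 4649, 4481 and 4602 reads with LPS and DMF at 4 h, and 1801, 1294 and 1355 with LPS alone. The DMF libraries lay close together and far above the others, a change of 1.64 ± 0.122 (limma, adjusted p = 0.000118). Cybb had 2031, 2819 and 1852 reads with DMF, below each LPS library (4380 to 4781), and its change was -1.05 ± 0.148 (adjusted p = 0.00237). Ncf1 had 1847, 1905 and 1796 reads against 2916, 3355 and 2921, the DMF libraries again below the others (-0.73 ± 0.0879, adjusted p = 0.00115). Ncf4 had 1369, 1466 and 1286 reads against 1646, 2014 and 1856 (-0.42 ± 0.102, adjusted p = 0.0291), and this call was lost without LPS replicate 2 (adjusted p = 0.0766), LPS replicate 3 (0.129), DMF replicate 1 (0.0576) or DMF replicate 3 (0.136). Rac2 (-0.22, 95% interval -0.44 to 0.00) and Sod2 (-0.27, -0.52 to -0.02) had negative estimates, and Sod1 a positive one (0.27, 0.00 to 0.53); Sod1 was called without LPS replicate 2 (0.385, adjusted p = 0.0488). Cyba was at -0.09 (-0.42 to 0.24). The 4 calls of 8 stand against 11.1% of all genes called. The summed microglia markers were lower in the same libraries (31076 to 34887 with DMF, 38439 to 43578 with LPS), with 3 of 13 called lower, and their part was not tested.

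At 24 h 3 of 8 genes were called with DMF over LPS (25.1% of all genes), in libraries that are shared with the other drug comparisons. The summed microglia markers were 46686 to 55448 reads with DMF and 38643 to 52783 with LPS, and their part was not tested. Cat had 3811, 5191 and 4774 reads against 1780, 2508 and 2308 with LPS alone. The groups did not overlap, and the change was 1.06 ± 0.134 (limma, adjusted p = 0.000704). Ncf4 had 2578, 3256 and 3251 reads against 2051, 2583 and 2285 on the joint scale, where the groups touched, and 0.39 ± 0.107 in the comparison's own table (adjusted p = 0.0238); it was not called without LPS replicate 1 (adjusted p = 0.0693), LPS replicate 3 (0.0801), DMF replicate 2 (0.0861) or DMF replicate 3 (0.109). Cybb had 4688, 5836 and 4707 reads, overlapping the range of LPS alone (5446 to 10290). Its change of -0.58 ± 0.183 (adjusted p = 0.0404) lost its call without LPS replicate 2 (-0.366, adjusted p = 0.0641), LPS replicate 3 (-0.569, 0.119), DMF replicate 1 (-0.532, 0.0921) or DMF replicate 3 (-0.53, 0.137), with DESeq2 (adjusted p = 0.0811) and in a fit of all 36 libraries (0.107). Ncf1 was at -0.01 (-0.22 to 0.20), Cyba at 0.13, Rac2 at 0.19, Sod1 at 0.07 and Sod2 at -0.22. With the replicate number as a block, Rac2 (adjusted p = 0.0261 in limma) and Sod2 (adjusted p = 0.013) were also called, and Sod2 was called without LPS replicate 1 (-0.363, adjusted p = 0.0222). Over all genes that block called 4566 of 11670, against 2926 without it.

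Around these genes, DMF at 4 h raised 2 of 10 other removal genes, Prdx1 (1.5), a cytosolic peroxiredoxin, and Prdx6 (0.58). Of the 12 other oxidase genes tested 1 was higher (Noxo1, 1.74, with 1 to 52 reads per library) and 2 lower (Nox1, -1.91, and Vav1, -0.39). Of the transcription factors Irf8 (-0.91), Irf1 (-0.83) and Spi1 (-0.79) led the 4 that were lower of 8, with 1 higher. Peroxisome assembly genes gave 1 higher (Pex13, 0.69) and 1 lower (Pex26, -0.92) of 12. At 24 h Prdx1 (0.76) was the 1 removal gene higher and Prdx4 (-0.69) and Prdx2 (-0.20) were lower, while 2 of the other oxidase genes were higher, P2rx7 (0.70) among them, and 0 lower. Of all genes 11.1% were called at 4 h and 25.1% at 24 h, and whether a list differs from these shares was not tested.

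MMF, the monomethyl ester and hydrolysis product of DMF, was given at the same 30 µM. None of the 8 genes was called with MMF over LPS at 4 h, where 0.122% of all genes were called, or at 24 h, where 0% were called. At each time 1 of the 8 genes, Cat, had an unadjusted p below 0.05. edgeR called 0 of the 8 at both times and DESeq2 called Cat at both, and over all genes at 24 h limma called 0 with 440 at an unadjusted p below 0.05, edgeR 0 and DESeq2 17.

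Cat had 2392, 2328 and 2004 reads with MMF at 4 h, all above the 1294 to 1801 of LPS alone. The change was 0.61 ± 0.128 (95% interval 0.33 to 0.90; limma, adjusted p = 0.26), and it was called without LPS replicate 1 (0.761, adjusted p = 0.0299), with DESeq2 (adjusted p = 0.00422) and in a fit of all 36 libraries (adjusted p = 0.0237). At 24 h Cat had 4006, 4882 and 3990 reads with MMF, all above the highest LPS library (2508), a change of 0.97 ± 0.126 (0.69 to 1.26; adjusted p = 0.0865). With the replicate number as a block it was called (adjusted p = 6.02e-11 in limma), as it was with DESeq2 (adjusted p = 3.54e-09), in a fit of all 36 libraries (adjusted p = 0.000369), with no filter on low values (adjusted p = 0.0374) and without LPS replicate 2 (1.07, adjusted p = 0.028). Cat was thus higher in 3 of 3 MMF libraries at each time, and the call rests on the fit used. For the other 7 genes the 24 h changes lay between -0.12 (Cybb, 95% interval -0.67 to 0.43) and 0.15 (Rac2, -0.08 to 0.38), and the 4 h changes between -0.17 (Ncf1, -0.35 to 0.01) and 0.03 (Rac2, -0.17 to 0.22). The intervals do not exclude changes of the sizes they span.

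With CBD at 6 µM none of the 8 genes was called at 4 h (0 by limma, 0 with an unadjusted p below 0.05, 0 by edgeR and 0 by DESeq2; 0.00875% of all genes called). Their changes there lay between -0.11 (Sod1, 95% interval -0.36 to 0.14) and 0.06 (Cybb, -0.13 to 0.24). At 24 h 5 of 8 were called: Cat, Ncf4 and Cyba rose over LPS alone and Ncf1 and Sod1 fell, in a comparison where 48.7% of all genes were called.

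Cat, the peroxide-removing enzyme, had 4414, 4428 and 4957 reads with CBD at 24 h against 1780, 2508 and 2308 with LPS alone, groups well apart (1.08 ± 0.119, limma, adjusted p = 0.000101). Ncf4 had 3700, 4428 and 3797 reads against 2051, 2583 and 2285, again apart (0.79 ± 0.102, adjusted p = 0.000245). Cyba, the membrane partner of Cybb, had 4658, 5460 and 4938 reads against 3471, 3179 and 3096, the CBD libraries all higher (0.63 ± 0.087, adjusted p = 0.000353). In the other direction, Ncf1, the organiser subunit, had 2132, 2939 and 1941 reads against 3225, 4144 and 3648, with no overlap (-0.66 ± 0.149, adjusted p = 0.00512). Sod1 had 2627, 2784 and 2647 reads against 3673, 3404 and 3306 (-0.36 ± 0.0753, adjusted p = 0.00355). The 5 subunits of the oxidase thus moved in both directions: Cyba and Ncf4 rose, Ncf1 fell, and Rac2 (-0.15, 95% interval -0.40 to 0.11) and Cybb were not called. Cybb had 4324, 9301 and 3668 reads with CBD, so that CBD replicate 2 stood near the LPS libraries (5446 to 10290) and the other 2 below them. Its change was -0.51 ± 0.323 (-1.24 to 0.21), and it was called with the replicate number as a block (adjusted p = 0.00803 in limma). Without CBD replicate 2 the Cybb change was -0.92 (adjusted p = 0.00463). That fit keeps LPS replicate 2, the highest LPS library (10290), and so is unbalanced in the replicate numbers. Sod2 was at 0.22 (-0.14 to 0.58) and called with the block (adjusted p = 0.0316 in limma). Over all genes the block called 6616 of 11671 at 24 h. The summed microglia markers were at 41363 to 53752 reads with CBD and 38643 to 52783 with LPS, with 3 of 13 higher and 3 lower. The summed oligodendrocyte markers were higher with CBD (75.9 to 80.8 reads) than with LPS alone (42.8 to 61), and the part of these markers was not tested.

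In the other lists CBD at 24 h gave 3 higher and 4 lower of 12 other oxidase genes, led by Hvcn1 (2.36; 14 to 191 reads per library), the proton channel that balances the charge the oxidase moves, P2rx7 (1.43) and Rac1 (-0.54). Among 10 other removal genes 2 were higher, Gpx4 (0.62, a glutathione peroxidase that acts on lipid peroxides) and Prdx1 (0.54), and 2 lower, led by Prdx5 (-0.31). Of 12 peroxisome assembly genes 4 were higher, led by Pex3 (0.64), Pex14 (0.40) and Pex2 (0.38), and 1 lower. The transcription factors gave 3 higher and 2 lower of 8, led by Cebpa (-0.98), Cebpb (0.75) and Spi1 (-0.38). These counts stand against 48.7% of all genes called, and whether a list differs from that share was not tested.

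MMF has a free acid where DMF has another methyl ester, and both were at 30 µM, so their libraries can be set against each other directly. This was the only pair at a matched dose, and p-values were adjusted over all genes at each time. At 4 h 4 of 8 genes differed (8.34% of all genes called): with DMF Cat was 2.04 times higher (1.03 ± 0.0911, limma, adjusted p = 0.000329), while Cybb (-0.90 ± 0.15, adjusted p = 0.00695), Ncf1 (-0.56 ± 0.0797, adjusted p = 0.00331) and Ncf4 (-0.37 ± 0.0884, adjusted p = 0.0302) were lower. In each of these 4 genes the DMF and MMF libraries did not overlap, and the same held for Rac2 and Sod1, which were not called here. The share of all genes without overlap was not counted. The Ncf4 difference lost its call without DMF replicate 3 (adjusted p = 0.144) or without MMF replicate 1 (0.0799), 2 (0.0984) or 3 (0.111). Rac2 (-0.25, 95% interval -0.43 to -0.07) and Sod1 (0.25, 0.03 to 0.48) were called only in a fit of all 36 libraries (adjusted p = 0.0435 and 0.027). Sod2 (-0.20, -0.43 to 0.02) and Cyba (-0.01, -0.23 to 0.21) were not called.

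At 24 h the 2 esters differed in 0 of 8 genes by limma, with 3 of 8 at an unadjusted p below 0.05, in a comparison with 21.5% of all genes called. edgeR called 0 of the 8 and DESeq2 called Ncf4 (adjusted p = 0.0315) and Sod2 (0.032). Cat had 3811, 5191 and 4774 reads with DMF and 4006, 4882 and 3990 with MMF, overlapping, with a difference of 0.09 (95% interval -0.17 to 0.35). Whether the Cat difference between the esters changed from 4 h to 24 h was not tested. Cybb was at -0.46 (-0.88 to -0.05), Sod2 at -0.32 (-0.58 to -0.07), Ncf4 at 0.30 (0.06 to 0.53) and Cyba at 0.15 (-0.07 to 0.36), and with the replicate number as a block these 4 were called (adjusted p = 0.000425, 0.000347, 0.00085 and 0.0202 in limma). Over all genes the block called 4639 of 11665, against 2508 without it. Without MMF replicate 1 Cybb (-0.642, adjusted p = 0.0416) and Sod2 (-0.447, 0.0225) were called, and Ncf4 was without DMF replicate 1 (0.409, 0.0119) or MMF replicate 2 (0.38, 0.0205). Ncf1 (-0.01, -0.24 to 0.23), Rac2 (0.04, -0.14 to 0.22) and Sod1 (-0.06, -0.21 to 0.09) lay nearest to 0.

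CBD was at another dose and in ethanol, while the esters were in DMSO. Its values are therefore set beside those of the esters without a comparison of potency, and drug, dose and solvent cannot be told apart. At 4 h CBD and DMF cultures differed in 6 of 8 genes (15.5% of all genes called), with Cybb (1.11 ± 0.153), Ncf1 (0.67 ± 0.0727), Ncf4 (0.42 ± 0.0826) and Rac2 (0.26 ± 0.0765) higher with CBD and Cat (-1.58 ± 0.0779) and Sod1 (-0.37 ± 0.0826) lower. Of these, Rac2 was called narrowly (adjusted p = 0.0493 in limma) and was not with no filter on low values (0.0701), without any of CBD replicates 1, 2 and 3 (0.0909, 0.175 and 0.141) or without DMF replicate 1 or 3 (0.0674 and 0.155). Sod1 was not called without CBD replicate 1 (adjusted p = 0.0742) or 2 (0.0602), and Sod2 was called without DMF replicate 1 (0.318, adjusted p = 0.029). At 24 h they again differed in 6 of 8 (38.5% of all genes), by 0.49 in Cyba, 0.39 in Ncf4 and 0.43 in Sod2, all higher with CBD, and by -0.66 in Ncf1, -0.44 in Sod1 and -0.34 in Rac2. The calls of Rac2 and Sod2 were the least steady of these, with adjusted p up to 0.082 and 0.126 when 1 library was left out (Rac2: CBD replicate 1 or 3, DMF replicate 2 or 3; Sod2: CBD replicate 2, where it fell to 0.256, and DMF replicate 1, 2 or 3), and that of Ncf4 was lost without DMF replicate 1 (0.281, adjusted p = 0.0562). Cat was not called (0.01, 95% interval -0.24 to 0.26) and Cybb was at 0.06 (-0.59 to 0.72), but at -0.35 without CBD replicate 2 (adjusted p = 0.0341). That fit keeps DMF replicate 2, the highest DMF library in Cybb, and so is unbalanced in the replicate numbers.

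CBD against MMF gave 0 of 8 calls at 4 h (1 of 8 at an unadjusted p below 0.05; edgeR 0; DESeq2 1; 0.166% of all genes called). Cat was lower with CBD in all libraries (1658, 1438 and 1456 reads against 2392, 2328 and 2004), by -0.56 ± 0.089 with an adjusted p of 0.0537 in limma, and it was called with the replicate number as a block (adjusted p = 9.91e-09), with DESeq2 (3.68e-05) and with no filter on low values (0.0362). Cybb, at 0.20, was also called with the block (adjusted p = 0.00181 in limma), which over all genes called 889 of 11432, against 19 without it. At 24 h 5 of 8 genes differed (48.3% of all genes): Ncf4 (0.70 ± 0.0992) and Cyba (0.64 ± 0.0947) were higher with CBD and Ncf1 (-0.66 ± 0.157), Sod1 (-0.49 ± 0.069) and Rac2 (-0.29 ± 0.106) lower. Rac2 lost its call with edgeR (adjusted p = 0.054), with no filter on low values (0.057) and without CBD replicate 1 (0.113), CBD replicate 3 (0.138), MMF replicate 2 (0.129) or MMF replicate 3 (0.107). Cat was not called (0.11, 95% interval -0.10 to 0.32), nor was Cybb (-0.39, -1.13 to 0.35), which was called with the block (adjusted p = 0.0128) and without CBD replicate 2 (-0.801, adjusted p = 0.00826). The fit without CBD replicate 2 keeps MMF replicate 2, the highest MMF library in Cybb, and so is unbalanced in the replicate numbers. Here the block called 6648 of 11716 genes.

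**Figure D3:**
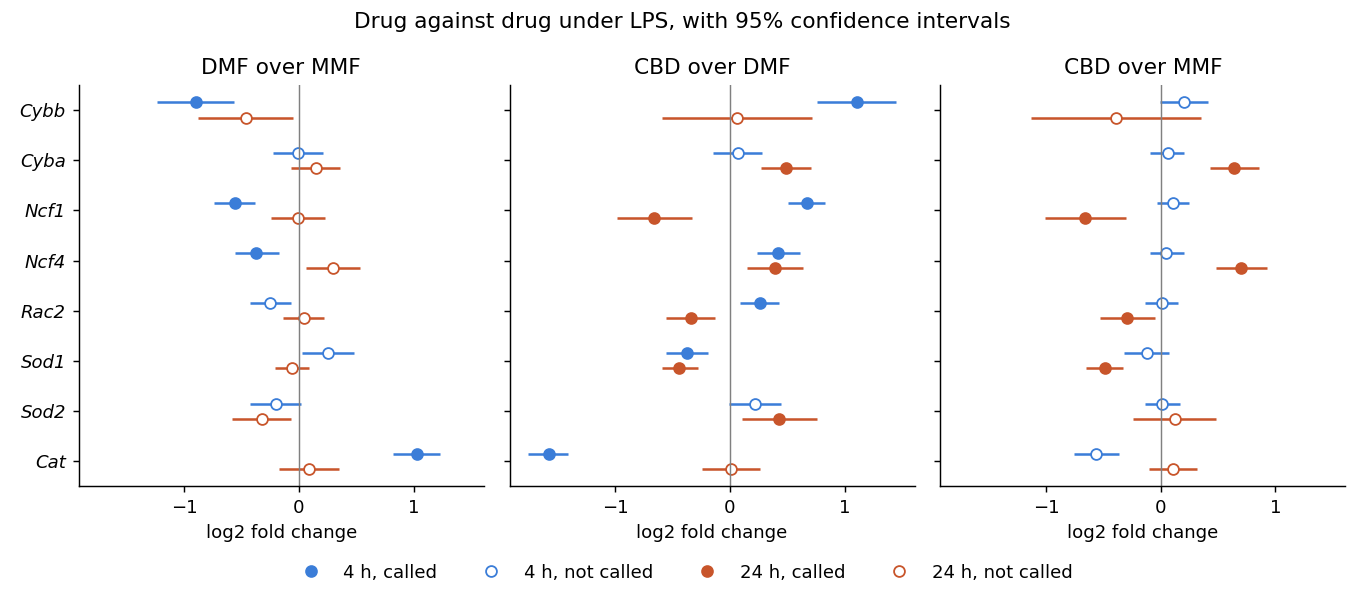
Log2 fold change (x axis) between cultures with LPS and 2 different drugs, for the 8 genes at 4 h (blue) and 24 h (orange), with 95% confidence intervals; filled points were called by limma. DMF over MMF reaches 1.03 for Cat and -0.90 for Cybb at 4 h, and at 24 h no point of that panel is filled.

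Set against their own vehicles, cultures with LPS and a drug had levels that carry both the LPS and the drug change. With DMF at 4 h, 4 of 8 genes were called over DMSO (23.5% of all genes): Cat (1.70 ± 0.0991), Sod2 (0.76 ± 0.098) and Sod1 (0.34 ± 0.0845) were higher and Ncf1 (-0.26 ± 0.0778) lower, whereas Cybb (-0.10, 95% interval -0.51 to 0.30), Ncf4 (-0.17, -0.37 to 0.02), Rac2 (-0.06) and Cyba (0.20) were not called. The call of Ncf1 was lost without DMSO replicate 4 (adjusted p = 0.101), 5 (0.126) or 6 (0.0735), without DMF replicate 3 (0.117) and in a fit of all 36 libraries (0.089), and that of Sod1 without DMSO replicate 4 (0.0633) or 6 (0.0546). With MMF at 4 h, 4 of 8 were called (8.22% of all genes), Sod2 (0.97), Cybb (0.80), Cat (0.68) and Ncf1 (0.30), all higher. There Ncf1 was not called without DMSO replicate 6 (adjusted p = 0.132), MMF replicate 2 (0.0641) or MMF replicate 3 (0.0688), and Ncf1 (0.106) and Cybb (0.0523) were not in a fit of all 36 libraries. With CBD at 4 h, 3 of 8 were called over EtOH (13.6%), Sod2 (0.91), Cybb (0.90) and Ncf4 (0.23), and Cat was at 0.00 (-0.19 to 0.19); Ncf4 was not called without EtOH replicate 4 (adjusted p = 0.126) or 6 (0.112), CBD replicate 2 (0.103) or 3 (0.0863) or in the fit of all 36 libraries (0.203), and Ncf1 was without EtOH replicate 5 (0.273, adjusted p = 0.0192) and with DESeq2 (0.0431).

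At 24 h 7 of 8 genes were called higher over DMSO with DMF (40.2% of all genes) and 7 of 8 with MMF (22.4%), Sod1 being the exception in both (-0.03 and 0.02). With DMF the changes ran from 0.59 (Cyba) to 1.5 (Cybb), with Ncf4 at 1.25, and with MMF from 0.44 (Cyba) to 1.96 (Cybb). Cat, which LPS alone did not move by this test, was 0.95 ± 0.113 higher with LPS and DMF and 0.86 ± 0.101 higher with LPS and MMF. With CBD 7 of 8 were called over EtOH (50.5%): Ncf4 (1.76 ± 0.108), Cybb (1.62 ± 0.299), Sod2 (1.45 ± 0.132), Cyba (1.10 ± 0.0819), Cat (1.02 ± 0.0953) and Rac2 (0.90 ± 0.0947) were higher and Sod1 (-0.39 ± 0.0683) lower, while Ncf1 was at 0.22 (95% interval -0.10 to 0.55). The summed microglia markers were also higher in these comparisons: 46686 to 55448 reads with DMF (9 of 13 called higher and 2 lower) and 40511 to 53469 with MMF (5 higher, 0 lower) against 31146 to 38962 with DMSO, and 41363 to 53752 with CBD (7 higher, 1 lower) against 34534 to 39020 with EtOH. Their part was not tested. These comparisons share their vehicle libraries with those of LPS alone, so they are not independent of them.

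The vehicles gave the background. DMSO and EtOH differed in 0 of 8 genes at 4 h by limma (1 of 8 at an unadjusted p below 0.05; edgeR 0; DESeq2 0; 0% of all genes called) and in 0 of 8 at 24 h (0 of 8 unadjusted; edgeR 0; DESeq2 0; 0.00854% of all genes). The largest difference was -0.18 in Ncf1 at 4 h (95% interval -0.33 to -0.04), which was called with the replicate number as a block (adjusted p = 0.0143 in limma). Over all genes that block called 876 of 11458 at 4 h, against 0 without it. Cat differed by -0.12 (-0.35 to 0.12) at 4 h and 0.07 (-0.14 to 0.27) at 24 h.

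Levels also moved with time in culture. In DMSO 5 of 8 genes were called between 24 h and 4 h (51.6% of all genes) and in EtOH 7 of 8 (58.6%). Cat was higher at 24 h in both vehicles (0.75 ± 0.104 and 0.55 ± 0.0975), with 1280 to 1706 reads at 4 h and 2064 to 2600 at 24 h, and Sod2 (-0.48 and -0.64), Cyba (-0.40 and -0.51), Ncf4 (-0.29 and -0.43) and Sod1 (-0.20 and -0.29) were lower in both. Cybb (-0.40, not called, and -0.58) and Ncf1 (-0.19, not called, and -0.37) were called lower in EtOH, and whether the vehicles differ in these changes was not tested; Rac2 was not called in either (0.11 and -0.11). Leaving out single vehicle libraries ended the calls of Sod1 in DMSO (without DMSO replicate 4 or 6 at 24 h or 5 or 6 at 4 h, adjusted p up to 0.114), of Ncf4 in DMSO (replicate 4 or 6 at 24 h, 4 or 5 at 4 h, up to 0.104, with -0.17 without replicate 4 at 24 h) and of Cybb in EtOH (replicate 4 at 24 h, 0.0517). The Cybb call in EtOH was also lost with DESeq2 (adjusted p = 0.0525) and in the fit of all 36 libraries (0.077), as was that of Sod1 in DMSO in the latter (0.0761), and Ncf1 in DMSO was called without DMSO replicate 5 at 24 h (adjusted p = 0.0324).

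With LPS, several oxidase genes were higher at 24 h than at 4 h. In LPS alone 6 of 8 genes were called (48.9% of all genes), with Rac2 (0.87 ± 0.112), Cybb (0.73 ± 0.183), Cat (0.56 ± 0.15) and Ncf4 (0.32 ± 0.105) higher and Sod1 (-0.39 ± 0.111) and Sod2 (-0.36 ± 0.126) lower. With the replicate number as a block Ncf1 (0.25) was called as well (adjusted p = 0.023 in limma), and so it was without LPS replicate 1 at 24 h (0.338, adjusted p = 0.0252) or LPS replicate 2 at 4 h (0.317, 0.0244). That block called 6010 of 11510 genes. Leaving out 1 library ended the call of Sod2 (adjusted p up to 0.109), Ncf4 (up to 0.103), Sod1 (up to 0.0658, without LPS replicate 2 or 3 at 24 h) and Cat (0.0541, without LPS replicate 2 at 24 h); for Sod2 these were LPS replicate 1 (-0.219) or 3 at 24 h and 1 or 2 at 4 h, and for Ncf4 LPS replicate 2 or 3 at 24 h and 1 or 3 at 4 h, and Cyba was called without LPS replicate 1 at 4 h (-0.347, adjusted p = 0.0464). With DMF 6 of 8 were called (58.8%), with Rac2 (1.28), Cybb (1.19), Ncf4 (1.13) and Ncf1 (0.97) higher and Sod1 (-0.59) and Sod2 (-0.32) lower, and Cat was at -0.01 (95% interval -0.26 to 0.23). With MMF 6 of 8 were called (49.5%), with Rac2 (0.99), Cat (0.93), Cybb (0.76), Ncf4 (0.47) and Ncf1 (0.42) higher and Sod1 (-0.27) lower. With CBD 6 of 8 were called (63.2%), with Cat (1.59 ± 0.0831), Ncf4 (1.11), Rac2 (0.69) and Cyba (0.42) higher and Sod1 (-0.64) and Ncf1 (-0.35) lower. The Ncf1 call was lost with edgeR (adjusted p = 0.064) and without any of 5 libraries (up to 0.129): CBD replicates 1 and 3 at 24 h and 1, 2 and 3 at 4 h. It was -0.231 without CBD replicate 3 and -0.527 without CBD replicate 2 at 24 h. With MMF Sod1 lost its call without MMF replicate 1 at 24 h or 2 or 3 at 4 h (up to 0.107), while Cyba (-0.234, adjusted p = 0.0383) and Sod2 (-0.301, 0.0233) were called without MMF replicate 2 at 24 h, Sod2 was called with CBD without CBD replicate 2 at 24 h (-0.263, 0.019), and with DMF Sod2 lost its call without DMF replicate 1 at either time (up to 0.111). Of the 13 microglia markers 9 were called higher and 1 lower between the times with DMF (median 0.96), with summed levels of 31076 to 34887 reads at 4 h and 46686 to 55448 at 24 h. In the other groups 5 were higher and 0 lower in LPS alone, 7 and 0 with MMF and 5 and 2 with CBD. Their part was not tested.

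Whether an effect itself changed between 4 h and 24 h was tested as an interaction over 12 libraries. The LPS effect over DMSO was larger at 24 h in 3 of 8 genes (9.46% of all genes called), Cybb (by 1.12 ± 0.318), Rac2 (0.74 ± 0.133) and Ncf4 (0.59 ± 0.16), and over EtOH in 4 of 8 (9.00%), Cybb (1.29 ± 0.289), Rac2 (0.96 ± 0.13), Ncf4 (0.74 ± 0.149) and Ncf1 (0.60 ± 0.139). For Sod2 the change of the LPS effect was 0.10 (95% interval -0.22 to 0.42) and 0.27 (-0.05 to 0.58). Over DMSO the Cybb change was not called with no filter on low values (adjusted p = 0.0587), in the fit of all 36 libraries (0.0506) or without any of 8 libraries (0.059 to 0.0856): LPS replicate 1 or 3 and DMSO replicate 5 or 6 at 4 h, and LPS replicate 2 or 3 and DMSO replicate 4 or 6 at 24 h. The Ncf4 change was not called without those libraries or DMSO replicate 4 at 4 h (0.0523 to 0.0694), while that of Rac2 was called in each setting. Ncf1 over DMSO was called without LPS replicate 1 at 24 h (0.511, adjusted p = 0.043), without LPS replicate 2 at 4 h (0.488, 0.0448) and with DESeq2 (0.0483). Over EtOH, Sod2 was called without LPS replicate 1 at 24 h (0.413, adjusted p = 0.034) and Cyba without LPS replicate 2 at 4 h (0.423, 0.0222).

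The DMF effect changed between the times in 2 of 8 genes (16.3% of all genes), Ncf4 (0.81 ± 0.159) and Ncf1 (0.71 ± 0.139): both were lower than with LPS alone at 4 h, and at 24 h Ncf4 was higher and Ncf1 at -0.01. For Cat the change was -0.58 (95% interval -1.01 to -0.14, adjusted p = 0.0694 in limma), called with DESeq2 (0.0461), in the fit of all 36 libraries (0.0246) and without LPS replicate 1 at either time (0.0222 at 4 h and 0.0273 at 24 h); for Rac2 it was 0.41 (0.11 to 0.72), called with the replicate number as a block (0.0169), with DESeq2 (0.0405), in the fit of all 36 libraries (0.0131) and without LPS replicate 2 at 24 h (0.0389). The MMF effect changed in 0 of 8 genes (0 at an unadjusted p below 0.05; 0 by edgeR and 0 by DESeq2; 0% of all genes), with Cat at 0.37 (-0.06 to 0.79). The CBD effect changed in 4 of 8 genes (32.0%), upward in Cat (1.03 ± 0.19), Ncf4 (0.80 ± 0.14) and Cyba (0.66 ± 0.163) and downward in Ncf1 (-0.60 ± 0.186). The Ncf1 change was lost without LPS replicate 1 or 3 or CBD replicate 2 at 4 h, or LPS replicate 2 or CBD replicate 1 or 3 at 24 h (adjusted p 0.0526 to 0.0648), and without CBD replicate 2 at 24 h Cybb was called (-0.972, adjusted p = 0.011). That Cybb fit keeps LPS replicate 2 at 24 h, the highest LPS library in Cybb, and so is unbalanced in the replicate numbers. Sod1 was called without LPS replicate 2 at 4 h (-0.365, 0.0231).

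**Figure D4:**
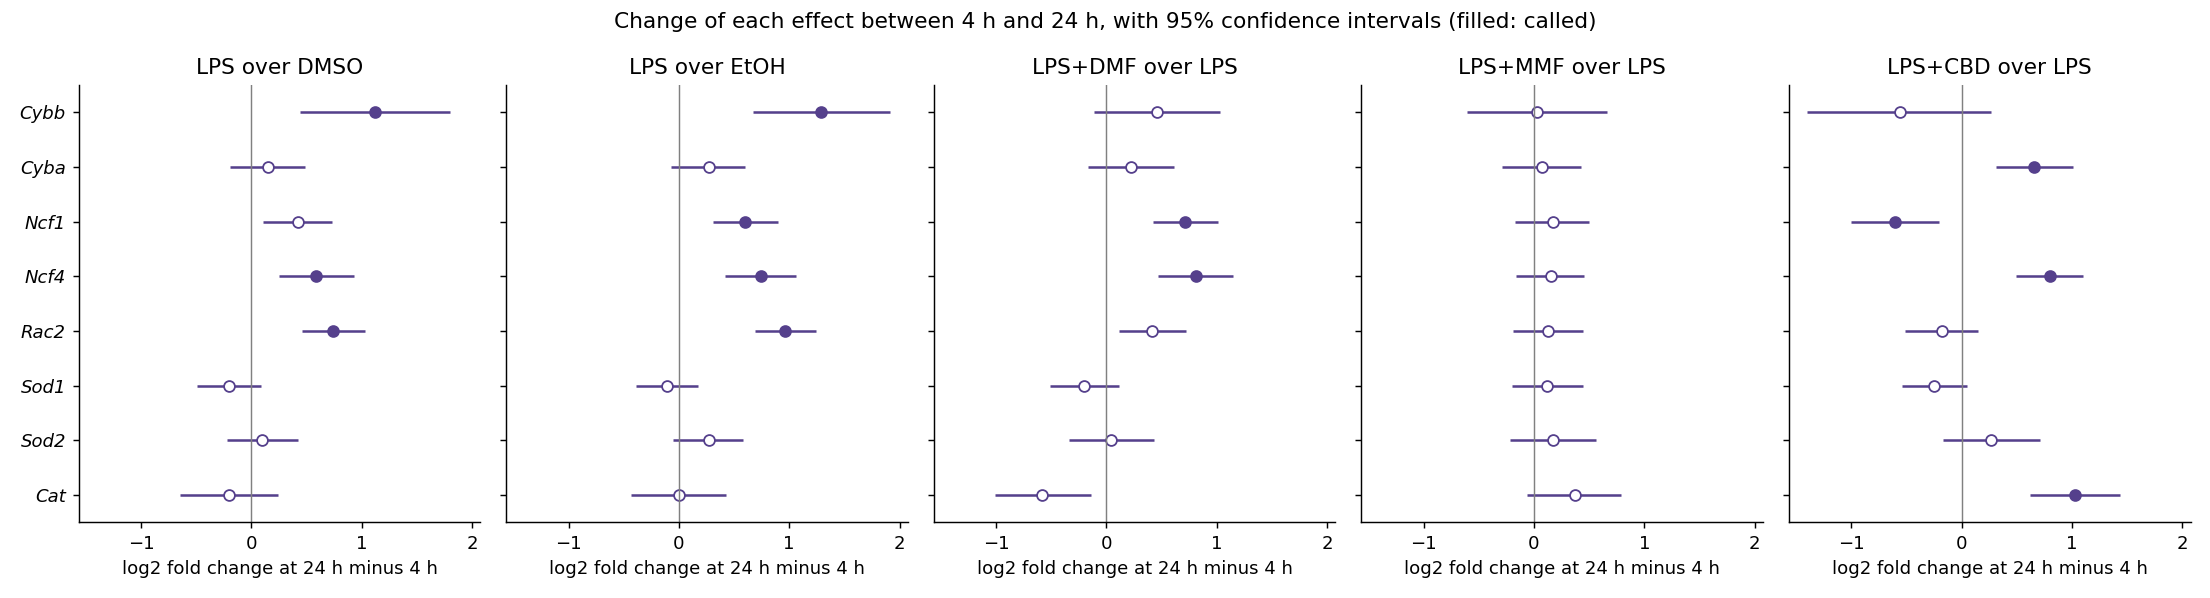
Change of each effect from 4 h to 24 h (x axis, log2 fold change at 24 h minus that at 4 h) for the 8 genes, with 95% confidence intervals; filled points were called by limma. Cybb reaches 1.12 and 1.29 in the LPS panels, and in the CBD panel Cat, Ncf4 and Cyba lie to the right of 0 and Ncf1 to the left.

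Cybb differed between libraries of a group in a repeated way. The library with the middle replicate number (2 in the groups with LPS, 5 in the vehicles) had the most Cybb reads in 12 of 12 groups, by 1.08 times the mean of the other 2 in LPS at 4 h and by 2.33 times in LPS with CBD at 24 h. Ncf4 was highest in the middle number in 11 of 12 groups, Ncf1 in 10, Rac2 in 9 and Cyba in 8. For Sod2, Sod1 and Cat the count was 6, 5 and 3 of 12. The same count was not made over all genes, so whether it is particular to these genes is not known. The labels do not say whether number 5 of the vehicles is the same experiment as number 2 of the other groups, and what set these libraries apart was not tested.

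**Figure D5:**
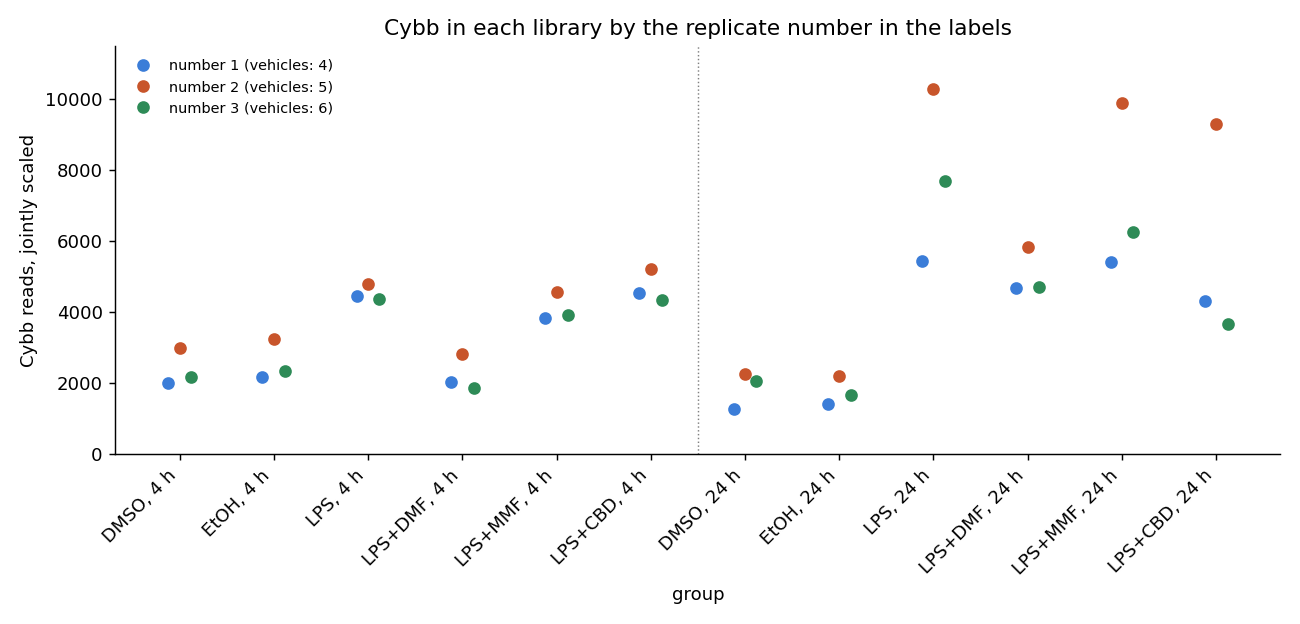
Cybb reads per library, jointly scaled (y axis, from 0), in the 12 groups (x axis), coloured by the replicate number in the labels; each point is 1 library. The middle number is the highest point in 12 of 12 groups, from 2184 reads in EtOH at 24 h to 10290 in LPS at 24 h.

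Over the 36 libraries, which share treatments and cultures so that their points are not independent, Cybb correlated most with Ncf1 among the 8 genes (Pearson r = 0.88), and Ncf4 with Rac2 (0.84). Cat had r of 0.57 with Rac2 and 0.05 with Ncf1, and Sod1 had r of -0.54 with both Ncf4 and Rac2. Of 10089 genes with a mean of 50 or more, the genes most like each of the 8 were Siglece (0.973) and Cyria (0.945) for Cybb, Ctsz (0.912) and Rap2c (0.876) for Cyba, Arrb2 (0.935) and Mgat4a (0.929) for Ncf1, Syk (0.959) and Rnf149 (0.947) for Ncf4 and Qsox1 (0.962) and Bbln (0.949) for Rac2. For Sod1 they were Atp5mf (0.926) and Ost4 (0.921), for Sod2 Zc3h12c (0.927) and Clec4e (0.919), and for Cat Slc40a1 (0.937) and Esd (0.921).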

How the data were processed

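RNA sequencing of 36 BV-2 libraries was read from 30 deposited tables, 1 for each comparison of 2 groups. The authors ran FastQC 0.12.1, Cutadapt 4.4, Trimmomatic 0.39, HISAT2 2.2.1 against GRCm39, HTSeq 2.0.3 and, in R 4.3.1, DESeq2 1.40.2, and the deposited signal is each gene's count divided by the size factor of its library within that table. The tables also hold the authors' own fold changes, standard errors, statistics, p-values and calls, which were not used. Whole reads were recovered from the steps between low values: 155 of 180 columns gave them directly, 25 took them from other tables of the same library, and 100% of 2695078 values lay within 0.01 of a whole read. Totals on listed genes were 14110424 to 26676607 per library; interval widths for fold changes come from the spread between libraries.

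In R 4.3.3, limma 3.58.1 with a trended prior was fitted to log2(normalized count + 1) over the 6 libraries of a comparison, for genes at 10 or more in at least 3 libraries, with a threshold of 0.05 on p adjusted by Benjamini-Hochberg. A fold change on this scale understates the change of low genes. The change of an effect between the times was tested over 12 libraries on the reads scaled jointly by median ratios. edgeR 4.0.16 and DESeq2 1.42.0 on the recovered reads were alternatives: edgeR called 1607 genes for LPS over DMSO at 4 h, where limma called 1609. The other alternatives were a pseudocount of 5, a filter at 50 or none, 1 fit of all 36 libraries, the replicate number as a block and leaving out each library. Simulated data were used to try the limma fit for LPS over DMSO at 4 h and for the change of the DMF effect between the times. edgeR and DESeq2 were tried on the former only. The simulated libraries were independent and held no replicate effect. The block, the fit of all 36 libraries and the fits without 1 library were not simulated. Nothing in the labels names separate animals or donors, so p-values measure the spread between repeats of a culture, which may be technical.

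Same-numbered libraries were marked as paired where all 3 correlations of their deviations from the group means were over 0.1. The main calls did not use this pairing in any comparison, and the fit with the replicate number as a block is given as an alternative. That was so in 14 of 20 comparisons with shared numbers, the exceptions being MMF over LPS and DMF over MMF at 4 h and 24 h over 4 h in DMSO, EtOH, LPS with DMF and LPS with CBD; the pairing comes from the data and the labels do not state it.

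The 8 genes and the lists around them were chosen with earlier results of these data known. All 8 were tested in each comparison, but in some comparisons genes of the 8 that were not called are not named. List genes are named only if called there, at most the 3 with the largest change. Exon lengths and start sites came from GENCODE M39, with exons limited to the gene span the files give. The values of 2 genes of these lists are not reported here.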

Additional observations from a re-analysis of the deposited data

Results flagged for a closer look

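A test of the difference between 4 h and 24 h (limma over 12 libraries, called at an adjusted p below 0.05) singled out 13 effects. The LPS effect over DMSO was larger at 24 h by 1.12 for Cybb, 0.59 for Ncf4 and 0.74 for Rac2 on the log2 scale, and that over EtOH by 1.29 for Cybb, 0.60 for Ncf1, 0.74 for Ncf4 and 0.96 for Rac2. These share the LPS libraries. The DMF effect over LPS differed by 0.71 for Ncf1 and 0.81 for Ncf4. The CBD effect over LPS differed by 0.66 for Cyba, -0.60 for Ncf1, 0.80 for Ncf4 and 1.03 for Cat. Of all genes 9.46% were called for the LPS effect over DMSO and 9.00% over EtOH. For the DMF, MMF and CBD effects the shares were 16.3%, 0% and 32.0%. Not all 13 are equally firm. The calls of Cybb and Ncf4 over DMSO and of Ncf1 with CBD were lost in fits without single libraries. That of Cybb was also lost in the fit of all 36 libraries (adjusted p = 0.0506 in limma).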

How the results depend on the processing

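Of 280 gene and comparison pairs, 280 kept their side of the threshold with a pseudocount of 5, 279 with a filter at 50, 278 with edgeR, 275 with no filter, 268 with DESeq2 and 263 in 1 fit of all 36 libraries. Among these, values that were not called changed sign in 3 pairs with edgeR, 3 with DESeq2 and 1 in the fit of all 36 libraries. With the replicate number as a block, 166 of 184 did and 18 became called; the block ended no call. For MMF over LPS the count of calls rose from 0 to 1 with no filter, to 2 with DESeq2, to 2 in the fit of all 36 libraries and to 2 with the replicate block, and lay between 0 and 1 when a library was left out, 1 being Cat without LPS replicate 1 at 4 h or LPS replicate 2 at 24 h. In MMF over LPS at 4 h, where the numbers did not pair the samples, the block gave Cat an adjusted p of 0.00312 in limma. Over all genes the block called 179 of 11431 for MMF over LPS at 4 h and 206 of 11584 at 24 h. Without it 14 and 0 were called. For DMSO over EtOH the block raised the count from 0 to 1 (Ncf1 at 4 h), and over all genes at 4 h from 0 to 876 of 11458. Of 1920 fits without 1 library, 102 lost a call, 30 gained one, 108 values that were not called changed sign and 1 reversed: Cybb for CBD over DMF at 24 h, at -0.35 without CBD replicate 2 and up to 0.326 without the others. The cause of these changes was not tested. Where the groups share replicate numbers, a fit without 1 library keeps the same-numbered library of the other group. Such fits are unbalanced for genes that differ by replicate number, as Cybb does. No paired analysis was run for LPS or LPS with a drug against a vehicle. Vehicle libraries are numbered 4 to 6 and the others 1 to 3, so the labels pair none of them. A pairing by order was not fitted. With 3 libraries a group, changes smaller than the printed intervals could not be resolved.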
